A study of Mus musculus with 6 samples.

Results

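Transcripts of 10 genes that bind, package or carry lipids were followed in the small intestine epithelium of mouse embryos at E13.5. These are the apolipoprotein genes *Apoa1*, *Apoa4*, *Apob*, *Apoc2*, *Apoc3*, *Apoe* and *Apom*, the gene of the microsomal triglyceride transfer protein, *Mttp*, and the fatty acid binding protein genes *Fabp1* and *Fabp2*. They were taken by symbol from the 23366 genes of the count tables, and all 10 were found and passed the filter on low counts that 12501 genes passed. Of the 6 libraries, 3 came from embryos of the genotype Shh-cre-egfp:Tcf7l1 lox/lox, called mutant here, and 3 from wild type embryos, none of them treated. Each was made from 500 sorted epithelial cells and 15 cycles of cDNA amplification, and the total count lay between 18216537 and 20397278. In the mutants Cre is made from the *Shh* locus and removes an exon of *Tcf7l1*, the gene of a TCF/LEF family transcription factor, from the gut epithelium. No group carried Cre with an intact *Tcf7l1*, so the part of the Cre allele and the part of *Tcf7l1* loss cannot be told apart. The replicate numbers are not tied to litters in the labels, so the p-values measure the spread between these libraries.

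In the enterocyte, the absorptive cell of the intestine, fatty acids enter through the brush border and are held in the cytosol by fatty acid binding proteins. They are rebuilt into triglycerides at the endoplasmic reticulum, where MTTP loads them onto APOB, the scaffold of the chylomicron, and the particle leaves by way of large COPII vesicles. APOA1 and APOA4 join the particle surface inside the cell, while the small APOC proteins and APOE steer how lipases and receptors treat it later in the blood. The same genes are also active in liver and in the yolk sac, and their promoters and enhancers are known to respond to HNF4, CDX, GATA and nuclear receptor factors.

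The 250 bases before the transcription start are shown for the 4 genes that passed the criteria in the mutant comparison and for *Apoa1*, which lies next to *Apoa4* in the genome and stayed near its wild type level. They are from RefSeq on GRCm38.p6, a later build than that of the counts, and are written along the gene's own strand. A table of such windows matched 9 of the 10 genes, with 11 windows, and *Apoc3* was not among them. Capitals mark the letters CTTTGAA, known from TCF/LEF sites, TTTATTG and its variant TTTATGG, known from CDX sites, and TATAAA, the TATA box, on either strand, so a match on the other strand appears as its reverse complement.
Fabp1 (chr6:71199629-71199878, plus strand): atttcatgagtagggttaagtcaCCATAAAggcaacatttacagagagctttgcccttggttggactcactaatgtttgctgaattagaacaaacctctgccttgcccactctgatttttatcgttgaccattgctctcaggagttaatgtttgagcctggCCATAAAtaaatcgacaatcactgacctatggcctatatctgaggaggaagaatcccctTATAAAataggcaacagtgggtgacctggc
Fabp2 (chr3:122894822-122895071, plus strand): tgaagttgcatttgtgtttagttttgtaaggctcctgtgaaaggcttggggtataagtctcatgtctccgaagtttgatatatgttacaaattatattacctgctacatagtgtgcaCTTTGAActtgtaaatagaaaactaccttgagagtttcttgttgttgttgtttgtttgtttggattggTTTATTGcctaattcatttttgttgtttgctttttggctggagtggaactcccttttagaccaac
Apoa4 (chr9:46240594-46240843, plus strand): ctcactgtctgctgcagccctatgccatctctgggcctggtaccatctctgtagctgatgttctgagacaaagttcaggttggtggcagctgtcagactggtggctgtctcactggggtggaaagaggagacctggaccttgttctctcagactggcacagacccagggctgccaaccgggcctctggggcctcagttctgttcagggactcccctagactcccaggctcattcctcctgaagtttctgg
Mttp (chr3:138143419-138143668, minus strand): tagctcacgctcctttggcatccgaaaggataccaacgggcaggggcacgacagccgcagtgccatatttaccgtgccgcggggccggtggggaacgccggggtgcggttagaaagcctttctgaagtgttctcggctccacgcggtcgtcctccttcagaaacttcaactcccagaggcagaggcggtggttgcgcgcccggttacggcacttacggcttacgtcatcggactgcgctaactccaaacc
Apoa1 (chr9:46228380-46228629, plus strand): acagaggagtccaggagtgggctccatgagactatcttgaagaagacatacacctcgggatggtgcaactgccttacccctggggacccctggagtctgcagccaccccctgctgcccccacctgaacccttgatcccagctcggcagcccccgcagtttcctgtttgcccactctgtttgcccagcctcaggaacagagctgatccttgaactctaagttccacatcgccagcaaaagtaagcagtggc

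The *Fabp1* window held TTTATGG on the other strand at -227 to -221 and again at -89 to -83, counted from the base before the start as -1, with TATAAA at -30 to -25. *Fabp2* held CTTTGAA at -133 to -127 and TTTATTG at -65 to -59. No searched motif lay in the windows of *Apoa4*, *Mttp*, *Apoa1* or *Apom*. Among the members not shown, *Apob* held CTTTGAA on the other strand at -44 to -38 beside TATAAA at -60 to -55, and *Apoc2* held TTTATTG on the other strand at -174 to -168. In 1 of the windows of *Apoe* TATAAA lay on both strands, in overlapping letters. Over all 32851 windows of the same length, CTTTGAA was held by 4.46%, TTTATTG by 4.20%, TTTATGG by 2.43% and TATAAA by 12.4%. CTTTGAT, also searched for TCF/LEF, was held by 3.21%, CAAAGTCCA for HNF4 by 0.384% and AGATAAG for GATA by 2.74%, and none of these lay in a window of the 9 genes. Each of these motifs was searched only in the exact letters given, so a site in another spelling would be missed. These are matches of letters, not measured binding.

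The targeted gene, *Tcf7l1*, stood at 438 ± 64.1 normalized counts in wild type and at 49.1 ± 21.1 in mutant libraries (SD, n = 3 each), as the labels imply. *Shh*, whose locus carries Cre, fell from 481 ± 65.8 to 198 ± 22.6. *Epcam*, the surface protein gene used in the sort, lay between 47961 and 57036 in wild type and between 60360 and 64100 in mutant libraries. *Xist*, made from the inactive X chromosome, was at 0 counts in every wild type library and at 237 to 452 normalized counts in the mutant ones, while Y-linked *Ddx3y* had 0 counts in the mutant libraries and 1746 to 2114 in wild type. Embryo sex therefore differed between the groups along with the genotype, and their parts in any change cannot be told apart. Changes are log2 fold changes of TMM-normalized counts from edgeR's quasi-likelihood test, mutant over wild type, with p-values adjusted by Benjamini-Hochberg over the tested genes. A call needed an adjusted p below 0.01, a change of 0.5 or more on the log2 scale in either direction, and 50 or more normalized counts on average.

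By level per kilobase of exon (RPKM), *Apoa1* led in wild type at 212 ± 16.3, rank 297 of 11874 tested genes with an exon length. *Fabp1* followed at 143 ± 16.3 and *Fabp2* at 118 ± 12.1, the liver-type and the intestinal fatty acid binding protein genes, and their libraries overlapped, from 130 to 161 against 108 to 131. *Mttp* stood at 20.6 ± 1.47, *Apoe* at 10.3 ± 1.47, *Apoa4* at 6.91 ± 1.61 and *Apoc2* at 2.79 ± 0.705, each apart from its neighbours in the order. *Apob*, *Apoc3* and *Apom* closed the order at 1.91 ± 0.354, 1.41 ± 0.610 and 1.39 ± 0.246. Their neighbours overlapped, and with the longest transcript in place of all exon bases *Apoc3* passed *Apob*, at 2.02 against 1.91. The genes thus spanned from the upper ranks to rank 9084, and *Apob*, which makes the structural protein of the chylomicron, stood at rank 8504. Counts do not show where along the 13934 exon bases of *Apob* the reads fell.

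In mutant libraries the first 3 genes came closer together. *Fabp1* reached 251 ± 8.33 RPKM, *Apoa1* kept 212 ± 23.0 and *Fabp2* reached 210 ± 14.8, so that *Fabp1* came before *Apoa1*. This order depends on the length used: with the longest transcript *Apoa1* stood at 253 ± 27.4 in mutant libraries, within the spread of *Fabp1*. *Apoa4* passed *Apoe*, at 13.2 ± 0.932 against 8.35 ± 0.972, or 11.9 ± 1.39 with the longest transcript of *Apoe*, and *Apoc3* passed *Apob*, at 3.29 ± 0.279 against 1.66 ± 0.511. The 10 genes together held 0.0609% to 0.0669% of all counts in wild type against 0.0776% to 0.0835% in mutant libraries. The share of *Apoa1* in these counts was 42.0% to 43.8% in wild type against 28.6% to 32.5% in mutant libraries. Neither range overlapped between the groups.

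**Figure D1:**
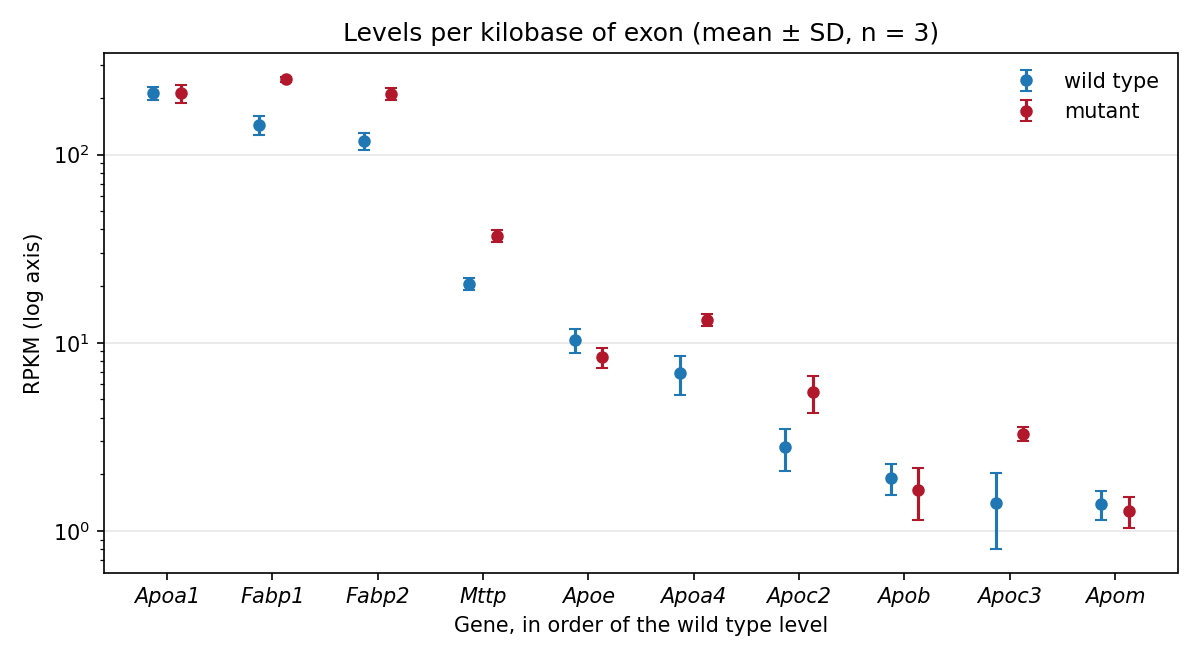
Levels of the 10 genes in RPKM, on a log axis, in wild type (blue) and mutant (red) libraries, as mean ± SD of 3 libraries. The genes follow the order of their wild type level, from *Apoa1* at 212 to *Apom* at 1.39, and *Fabp1* stands above *Apoa1* in the mutant libraries, an order that is not kept with the longest transcript of *Apoa1* as its length.

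Both fatty acid binding protein genes, *Mttp* and *Apoa4* were called higher in the mutant libraries, by 1.75- to 1.91-fold, and 0 were called lower by edgeR, with DESeq2 or at an unadjusted p under 0.05. That is 4 of 10 genes, where 2.78% of all 12501 tested genes were called higher (348 genes), 5.83% lower (729 genes) and 8.62% in either direction. Libraries of the 2 groups were apart for 6 of the 10 genes, the called ones with *Apoc2* and *Apoc3*, always with the mutant libraries above, against 20.8% of all tested genes in that direction, 22.2% in the other and 43.0% in both. The median log2 fold change was 0.82 over the 10 genes and -0.04 over all tested genes. Higher calls were 32.3% of all calls, 17.3% with library size as the only scaling and 65.0% after a correction for gene length, and the 4 genes were called under both. In bulk libraries more cells that make a transcript and more transcript in each cell cannot be told apart.

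**Figure D2:**
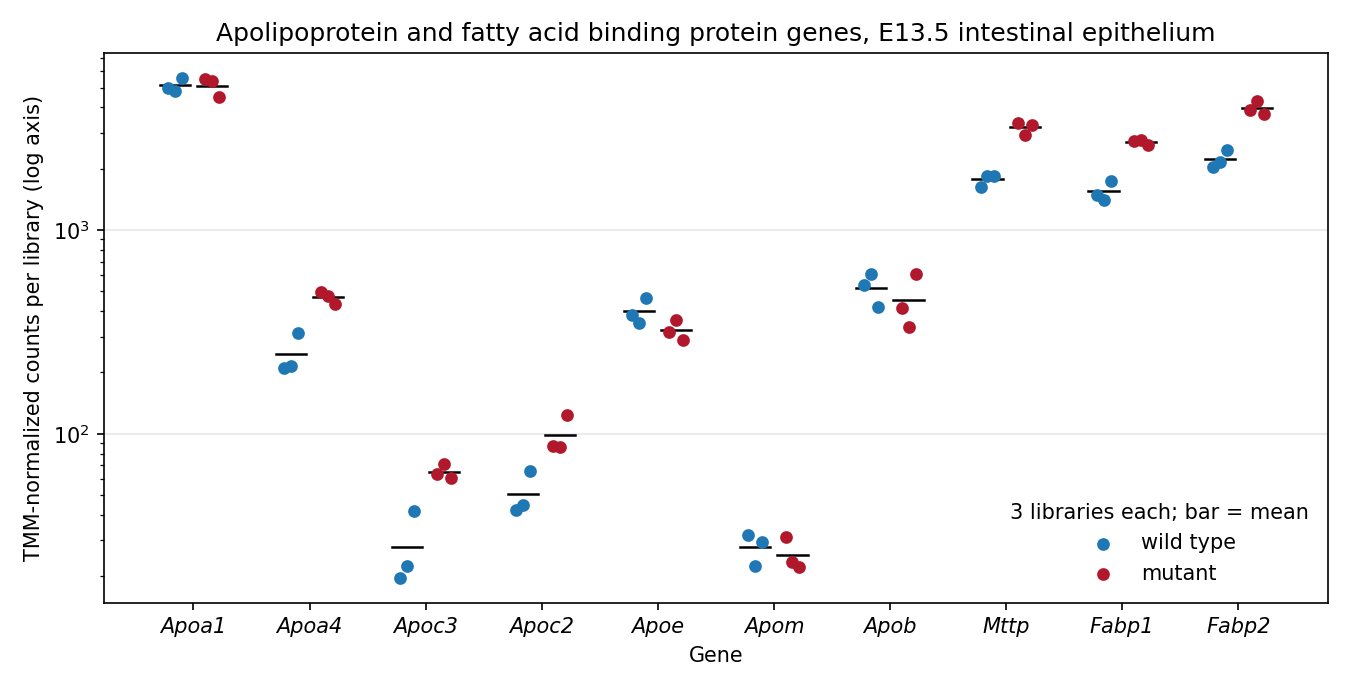
TMM-normalized counts of each gene in each library, on a log axis, with 3 wild type (blue) and 3 mutant (red) libraries and a bar at the mean of each group. The mutant libraries lie above all wild type libraries for *Apoa4*, *Apoc3*, *Apoc2*, *Mttp*, *Fabp1* and *Fabp2*, and the groups overlap for *Apoa1*, *Apoe*, *Apom* and *Apob*.

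*Fabp1*, on the plus strand of chromosome 6 (71149821 to 71155017 of mm9, the build of the counts), makes the fatty acid binding protein shared by liver and intestine. Its normalized counts were 1492, 1405 and 1743 in wild type 1 to 3 against 2746, 2779 and 2610 in mutant 1 to 3. The lowest mutant library thus stood well above the highest wild type library. The means were 1547 ± 176 and 2712 ± 90.0, a log2 fold change of 0.81 (SE 0.09, adjusted p = 1.18e-05 from edgeR). *Fabp2* (chromosome 3, 122597990 to 122602424, plus strand), the gene of the intestinal fatty acid binding protein, had 2041, 2144 and 2477 in wild type against 3895, 4272 and 3727 in mutant libraries. All mutant libraries were again above all wild type libraries, with means of 2221 ± 228 and 3965 ± 279 and a log2 fold change of 0.84 (SE 0.09, adjusted p = 5.68e-06 from edgeR). The counts of *Fabp1* over those of *Fabp2* within a library lay between 0.655 and 0.731 in wild type and between 0.651 and 0.705 in mutant libraries. A scaling factor for the whole library does not change this ratio, but the length correction below can. In these counts the pair kept its proportion, with group means of 0.697 and 0.685. This ratio and those below were chosen after the values were seen and are given with no test.

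Short genes as a whole stood higher in the mutant libraries, which bears on the fatty acid binding protein genes with 553 and 965 exon bases. It also bears on *Apoc2*, *Apoc3*, *Apom* and *Apoa1*, with 932, 1014, 1029 and 1236 exon bases. Among the 1189 tested genes of 39 to 1462 exon bases the median log2 fold change was 0.19 and 5.63% were called higher, against -0.12 and 1.52% among the 1188 longest. A correction for gene length, which moved the median of all genes by 0.14, gave 0.62 for *Fabp1* and 0.72 for *Fabp2*, still called, and these lay 0.53 and 0.63 above that median. For *Mttp*, with 4410 exon bases, it gave 1.06, or 0.97 above the median, and for *Apoa4* 0.96, or 0.87 above it. *Apoc2* came to 0.85 and *Apoc3* to 1.13, or 0.76 and 1.03 above the median, neither of them called. *Apom* and *Apoa1* came to -0.23 and -0.07, or -0.32 and -0.16 from the median, also not called. With library size as the only scaling, which moved the median by -0.11, the 4 called genes stood 0.86 to 0.98 above it.

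*Mttp* (chromosome 3, 137752819 to 137806352, minus strand) makes the chaperone that loads lipid onto APOB. Its normalized counts were 1626, 1846 and 1845 in wild type 1 to 3 against 3352, 2932 and 3285 in mutant 1 to 3. The groups lay far apart, with means of 1772 ± 127 and 3190 ± 226, a log2 fold change of 0.85 (SE 0.08, adjusted p = 3.47e-06 from edgeR) and a fold of 1.80 with a 95% interval from 1.59 to 2.04. *Apob* (chromosome 12, 7984454 to 8023641, plus strand), whose protein is its partner, did not follow. It had 536, 608 and 417 in wild type against 414, 334 and 605 in mutant libraries, so the groups overlapped over most of their range. The means were 520 ± 96.3 and 451 ± 139, a log2 fold change of -0.21 (SE 0.20, adjusted p = 0.464 from edgeR), with a 95% interval of the fold from 0.649 to 1.16. For *Apob* the log2 fold change was -0.47 without mutant 3, the highest of its group, -0.03 without mutant 2 and -0.08 without wild type 2. Counts of *Mttp* over *Apob* were 3.03, 3.04 and 4.42 in wild type against 8.09, 8.77 and 5.43 in mutant libraries, which did not overlap.

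*Apoa1*, *Apoc3* and *Apoa4* lie side by side on chromosome 9. *Apoa1* (46036663 to 46038549, plus strand), the main protein gene of high density lipoprotein, had 4981, 4824 and 5571 normalized counts in wild type against 5481, 5383 and 4476 in mutant libraries. The groups overlapped, with means of 5125 ± 394 and 5113 ± 554 and a log2 fold change of 0.00 in size (SE 0.09, adjusted p = 0.983 from edgeR). The 95% interval of the fold ran from 0.879 to 1.13, below the lower bound of each of the 4 called genes. No direction can be given: the log2 fold change was 0.08 without mutant 3, the lowest mutant library, and also without wild type 3, the highest, and 0.02 with DESeq2.

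*Apoa4* (46048779 to 46051542, plus strand), a chylomicron protein gene of the enterocyte, had 210, 214 and 311 normalized counts in wild type 1 to 3 against 496, 476 and 431 in mutant 1 to 3. The groups did not overlap, although wild type 3 stood above the other two wild type libraries. The means were 245 ± 56.9 and 468 ± 33.1, a log2 fold change of 0.93 (SE 0.18, adjusted p = 0.00126 from edgeR) and a fold of 1.91 with a 95% interval from 1.47 to 2.47. Its adjusted p reached at most 0.00973 when single libraries were left out, and the call held. Exons of a gene model on the opposite strand, Gm10680, overlap 34.8% of the exon bases of *Apoa4*, and whether reads were counted by strand is not stated, so reads of either gene could have been counted here.

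*Apoc3* (46041016 to 46043719, minus strand), between them, makes an inhibitor of lipoprotein lipase. It had 19.7, 22.4 and 41.8 normalized counts in wild type against 63.2, 71.3 and 60.8 in mutant libraries, which did not overlap. Means of 28.0 ± 12.1 and 65.1 ± 5.52 gave a log2 fold change of 1.22 (SE 0.43, adjusted p = 0.0422 from edgeR), which missed the threshold, and its mean count was also under 50. At these counts the fold is wide, with a 95% interval from 1.24 to 4.34. Counts of *Apoa4* over *Apoa1* in the same library were 0.0422, 0.0445 and 0.0558 in wild type against 0.0905, 0.0884 and 0.0964 in mutant libraries. Those of *Apoc3* over *Apoa1* were 0.00395 to 0.00751 in wild type against 0.0115 to 0.0136 in mutant libraries. Both ratios were apart between the groups, with means higher by 1.93- and 2.38-fold.

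Near these 3 genes, within 100 kb of a member, 4 other genes are in the tables. *Apoa5* and *4931429L15Rik* had 0 counts in all libraries. *Zfp259* stood at 3523 ± 107 in wild type against 4269 ± 234 in mutant libraries (log2 fold change 0.28, adjusted p = 0.00994 from edgeR, not called for its size), and *Bud13* at 685 ± 46.9 and 682 ± 86.2. By edgeR 0 of the 4 neighbours were called, nor were any with DESeq2, and *Zfp259* alone had an unadjusted p under 0.05.

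*Apoe*, *Apoc1* and *Apoc2* lie in a cluster on chromosome 7, and none of them was called. *Apoc2* (20256928 to 20266772, minus strand), whose protein activates lipoprotein lipase, had 42.2, 44.7 and 65.6 normalized counts in wild type against 87.0, 86.3 and 124 in mutant libraries. The groups did not overlap, with means of 50.8 ± 12.8 and 99.0 ± 21.5, but the log2 fold change of 0.96 (SE 0.32, adjusted p = 0.0373 from edgeR) missed the threshold. *Apoc4*, on the same strand, overlaps 12.0% of the exon bases of *Apoc2* and had 0 counts in all libraries. *Apoe* (20281458 to 20284515, minus strand), the gene of a ligand for lipoprotein receptors, had 384, 351 and 462 in wild type against 317, 363 and 289 in mutant libraries. The groups overlapped at mutant 2, with means of 399 ± 56.8 and 323 ± 37.6 and a log2 fold change of -0.30 (SE 0.16, adjusted p = 0.177 from edgeR), and a 95% interval of the fold from 0.636 to 1.03. Counts of *Apoc2* over *Apoe* were 0.110, 0.127 and 0.142 in wild type against 0.275, 0.238 and 0.429 in mutant libraries, again without overlap.

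Around *Apoe* and *Apoc2* 9 other genes are in the tables, of which 8 were tested and 1 was called. *Bcam*, the gene of an adhesion protein, was called lower, from 975 ± 119 to 426 ± 112 (log2 fold change -1.19, adjusted p = 8.10e-05 from edgeR). *Apoc1*, between the members, had 23.2 ± 2.89 in wild type against 47.1 ± 9.12 in mutant libraries, a log2 fold change of 1.02 that missed the threshold (adjusted p = 0.105 from edgeR). The log2 fold changes of *Clasrp*, *Relb*, *Clptm1*, *Tomm40*, *Pvrl2* and *Cblc*, none of them called, were -0.45, -0.36, -0.05, 0.01, -0.10 and 0.24.

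**Figure D3:**
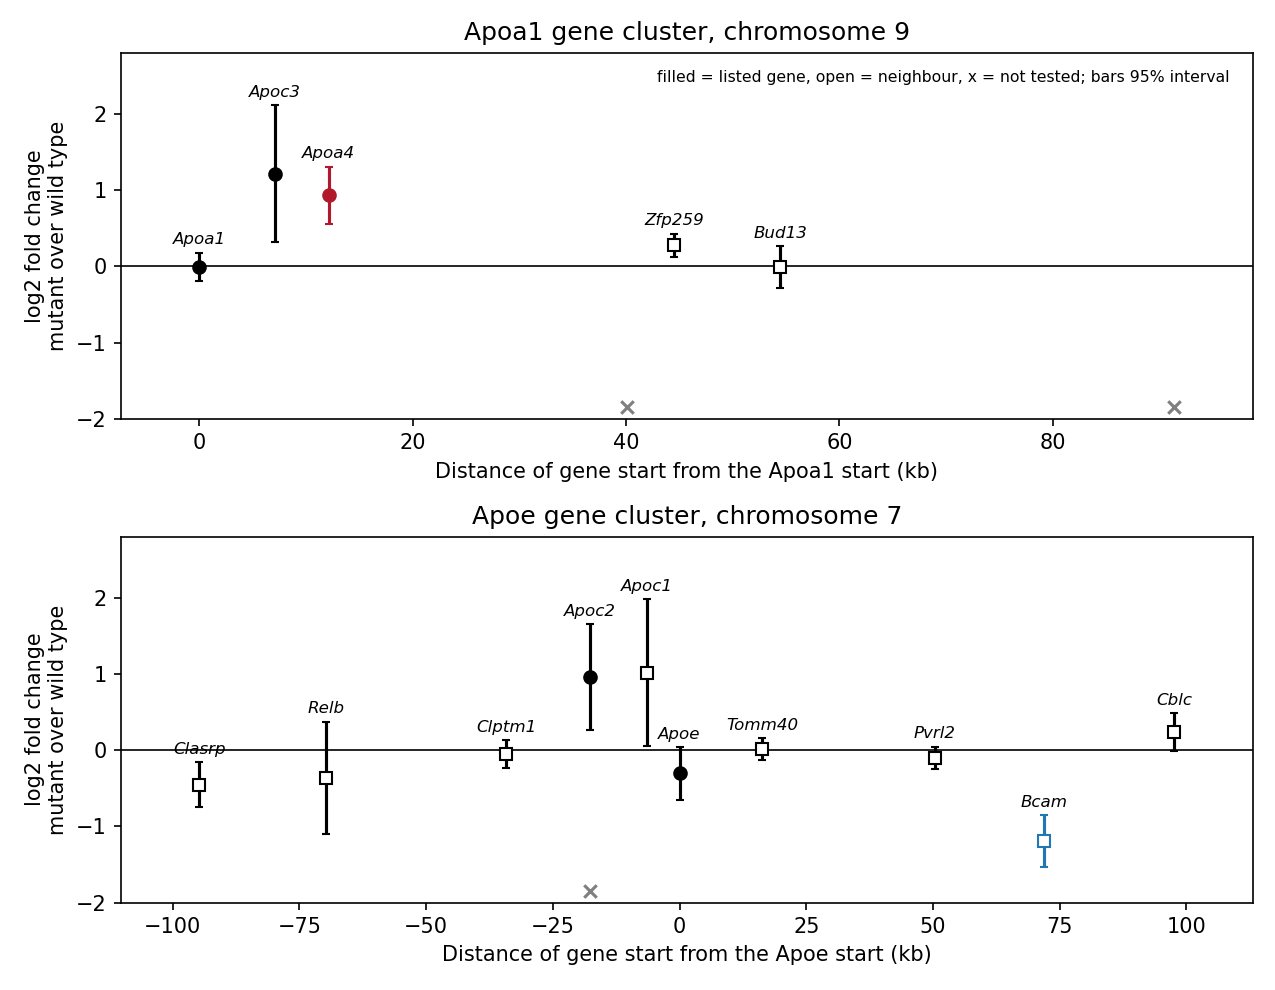
Log2 fold change of each tested gene against the distance of its start from that of *Apoa1* on chromosome 9 (top) and of *Apoe* on chromosome 7 (bottom), in kb of mm9, with bars for the 95% interval. Filled circles are members, open squares are neighbours, red is called higher, blue called lower, and crosses mark genes that were not tested. *Apoa1* lies at 0 while *Apoa4* lies at 0.93 close by, and *Bcam* at -1.19 is the called neighbour.

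*Apom* (chromosome 17, 35265942 to 35268995, minus strand), the gene of a lipocalin that carries sphingosine-1-phosphate on high density lipoprotein, was the lowest member by level. It had 31.9, 22.4 and 29.5 normalized counts in wild type against 31.1, 23.4 and 22.1 in mutant libraries, which overlapped almost fully. The means were 27.9 ± 4.94 and 25.5 ± 4.83 (log2 fold change -0.13 with an SE of 0.50, adjusted p = 0.875 from edgeR). The 95% interval of the fold, from 0.439 to 1.91, takes in the folds of *Fabp1*, *Fabp2* and *Mttp* as well as no change. The mean count of *Apom* was also under 50, so no call could be made at these counts.

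**Figure D4:**
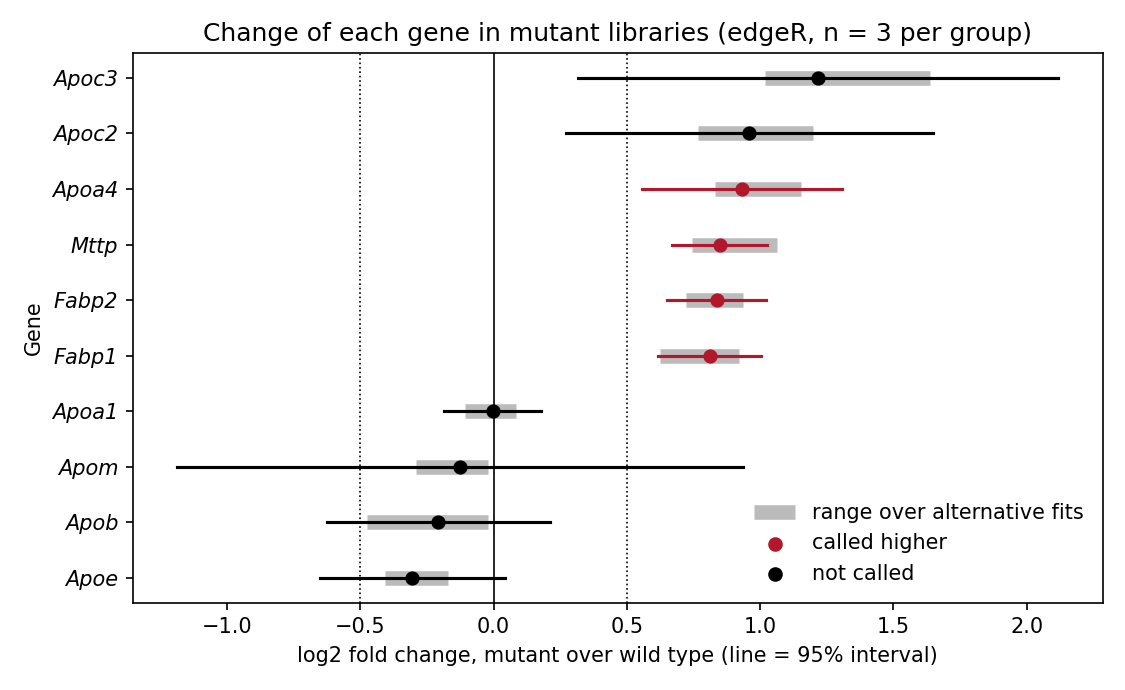
Log2 fold change of each gene, mutant over wild type, with the 95% interval (thin line) and the range over all alternative fits (grey bar). Dotted lines mark the size that a call needs, at 0.5 in both directions. *Mttp*, *Fabp1*, *Fabp2* and *Apoa4*, in red, were called, with values from 0.81 to 0.93, and *Apoc2* and *Apoc3* have larger values with wider intervals.

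The profile of each called gene over the 6 libraries was compared with that of every tested gene with a mean of at least 500 normalized counts, by the root mean square difference of log2 profiles centred on their mean. *Mocs2*, of molybdenum cofactor synthesis, and *Nfu1*, of iron-sulfur cluster assembly, were the nearest to *Fabp1*, at 0.027 and 0.040. *Nudt19*, of coenzyme A breakdown, and *Ndufa12*, of respiratory complex I, were the nearest to *Fabp2*, at 0.019 and 0.036, and *Fabp1* itself lay at 0.060. For *Mttp* these were *Scyl2* and *Ahcy* at 0.066 and 0.076, and for *Apoa4* they were *Pcgf5* and *Arl14* at 0.077 and 0.099. All 8 are genes called higher in the same comparison, as a likeness to a called profile would select. Between members, *Mttp* lay at 0.126 from *Fabp1* and *Apoa4* at 0.125.

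The other genes of lipid binding and transport were described in 6 lists, with the calls of the whole comparison. Of 7 tested other apolipoprotein genes, out of 24 written, 0 were called in either direction by edgeR or DESeq2, and 9 had 0 counts in all libraries. At an unadjusted p under 0.05, 2 stood higher and 2 lower, and the median log2 fold change was 0.18. *Clu*, the most abundant of them at 7226 ± 497 in wild type against 5545 ± 359 in mutant libraries, had a log2 fold change of -0.38 (adjusted p = 0.00168 from edgeR), under the size needed. *Apoa2*, another protein gene of high density lipoprotein, had 9.73 ± 3.60 and 21.4 ± 11.1. *Apol6* had 27.5 ± 8.56 and 3.21 ± 2.81 (adjusted p = 0.00736 from edgeR), with a mean under 50.

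Of 15 other genes of fatty acid, acyl-CoA and retinoid binding proteins, 7 were tested and 0 were called by edgeR or DESeq2, with a median of 0.07. At an unadjusted p under 0.05, 1 stood higher. *Fabp5*, the family member with the most counts after *Fabp1* and *Fabp2*, had 1211 ± 105 and 1168 ± 63.1, a log2 fold change of -0.05 (adjusted p = 0.739 from edgeR). *Rbp2*, the cellular retinol binding protein gene of the enterocyte, had 99.1 ± 18.6 and 121 ± 9.80. *Fabp6*, the ileal bile acid binding protein gene, had 1.25 ± 2.17 and 2.16 ± 2.13 and was not tested. *Dbi*, the acyl-CoA binding protein gene, had 4172 ± 462 and 5148 ± 226 (log2 fold change 0.30, adjusted p = 0.0122 from edgeR).

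Among the 36 tested genes of chylomicron assembly, out of 37, 2 were called higher and 1 lower, with a median of -0.03. Of all tested genes 2.78% were called higher and 5.83% lower. At an unadjusted p under 0.05, 11 genes of this list stood higher and 8 lower. *Prap1*, whose protein binds MTTP and aids lipid transfer, rose from 1024 ± 140 to 2308 ± 277 (log2 fold change 1.17, adjusted p = 2.62e-06 from edgeR). *Sar1b*, the GTPase gene of the COPII coat that is mutated in chylomicron retention disease, rose from 2452 ± 278 to 3663 ± 223 (0.58, adjusted p = 2.20e-04 from edgeR), while its paralogue *Sar1a* had a log2 fold change of -0.08. *Rbm47*, a cofactor gene of *Apob* mRNA editing, fell from 1984 ± 31.8 to 1200 ± 72.9 (-0.72, adjusted p = 2.79e-05 from edgeR). The genes of the last steps of triglyceride synthesis had smaller values, with 0.48 for *Dgat1*, 0.33 for *Dgat2* and 0.33 for *Mogat2*, and *P4hb*, whose product is the other subunit of the MTTP complex, had -0.03. With library size as the only scaling 1 gene of this list was called higher, and after the length correction 5 were.

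Of 12 tested genes of lipid uptake and efflux, out of 19, 0 were called higher and *Slc27a3*, of the fatty acid transport protein family, was called lower, from 409 ± 84.6 to 193 ± 58.6 (-1.08, adjusted p = 0.00234 from edgeR). The median was -0.47, and DESeq2 also called 0 higher and 1 lower, with 1 and 6 at an unadjusted p under 0.05. The scavenger receptor gene *Cd36* had 30.3 ± 16.4 and 34.6 ± 16.4. Among 18 tested genes of lipoprotein receptors and remodelling, out of 26, *Lrp2*, the megalin gene, was called higher, from 93.5 ± 23.7 to 198 ± 33.0 (1.08, adjusted p = 0.00506 from edgeR), and 0 were called lower, with a median of 0.11. DESeq2 called 2 higher and 0 lower, and 3 and 4 had an unadjusted p under 0.05. With library size as the only scaling 0 were called higher, *Lrp2* included, and 2 lower, and after the length correction 3 were called higher and 0 lower.

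**Figure D5:**
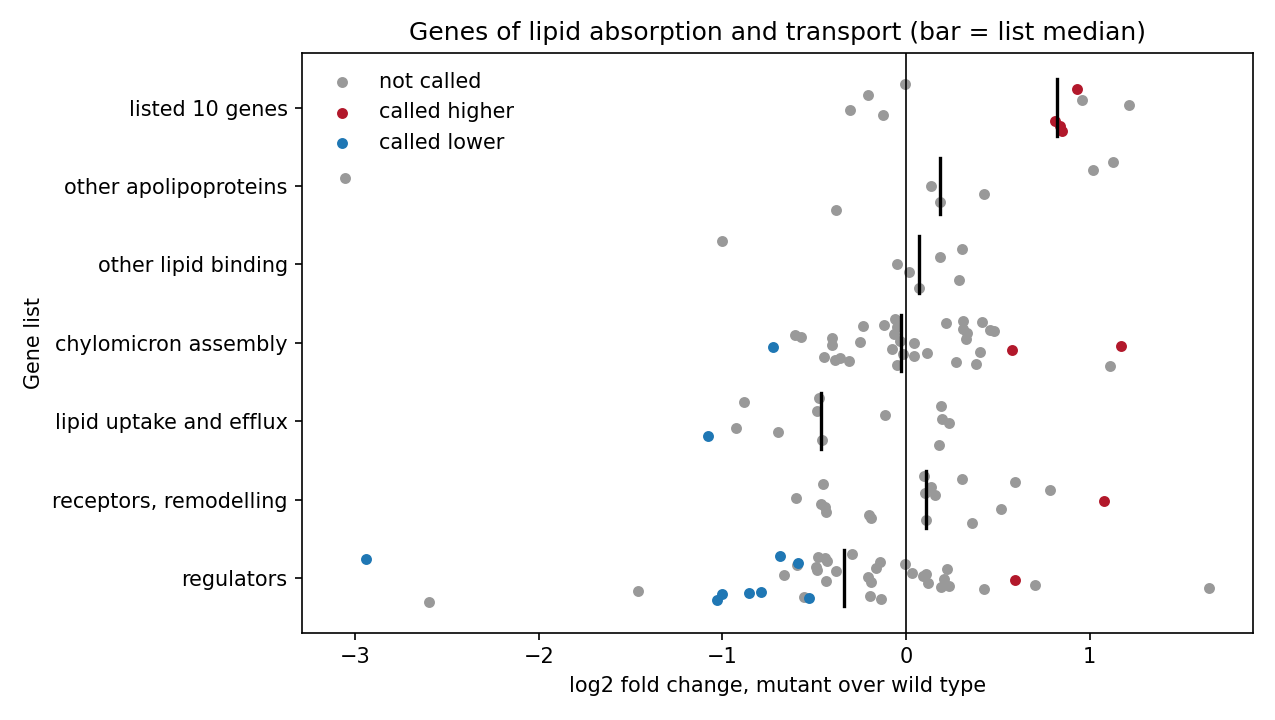
Log2 fold change of every tested gene of the 10 members and of the 6 other lists, with a black bar at the median of each list (red, called higher; blue, called lower; grey, not called). The median of the members is 0.82, and those of the other lists lie between -0.47 and 0.18.

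Genes of factors known to act on apolipoprotein and fatty acid binding protein genes were read in the same way, with 8 of 40 tested called lower and 1 higher, where 5.83% and 2.78% of all tested genes were, and a median of -0.34. The number called lower was 14 with library size as the only scaling and 4 after the length correction, so it depends on the scaling. *Cdx2*, the homeobox factor of intestinal identity, fell from 796 ± 148 to 495 ± 66.3 (log2 fold change -0.68, adjusted p = 0.00349 from edgeR). *Foxa2*, a forkhead factor of the endoderm, fell from 286 ± 14.6 to 37.1 ± 17.7 (-2.94, adjusted p = 3.02e-06 from edgeR). The retinoid and thyroid receptor genes *Rara*, *Rxra* and *Thrb* fell by 0.79, 0.85 and 1.03 on the log2 scale, *Rxrb* fell from 507 ± 71.3 to 253 ± 53.1 normalized counts, and *Gata5* and *Srebf2* fell by 0.59 and 0.53. *Nr1h4*, the bile acid receptor gene, rose from 1057 ± 129 to 1593 ± 196 (0.59, adjusted p = 0.00149 from edgeR). *Nr1h4* was not called with library size alone.

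*Hnf4a* and *Hnf4g*, the genes of HNF4, which binds the promoters of many apolipoprotein genes, were not called. *Hnf4a* had 1342 ± 217 in wild type against 1196 ± 60.9 in mutant libraries (log2 fold change -0.17, adjusted p = 0.307 from edgeR). *Hnf4g* had 4031 ± 363 and 4708 ± 164 (0.22, adjusted p = 0.0410 from edgeR). *Gata4* had 1941 ± 260 and 1757 ± 57.8, and *Nr2f2*, of COUP-TFII, had 401 ± 64.1 and 296 ± 25.2.

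Since liver and macrophages also make some of these lipoprotein genes, their markers were read beside the members. Of 24 liver genes 10 were tested, 6 were called lower and 0 higher by edgeR and DESeq2, and the summed level of the list was 20053 to 24178 normalized counts in wild type against 16654 to 17705 in mutant libraries. The lower ones were *Ambp*, *Fgb*, *Serpina1a*, *Serpina1b*, *Serpina1d* and *Serpina1e*, and the defining hepatocyte gene *Alb* had at most 6 counts in any library, with *Ahsg* and *Hp* at 0. At an unadjusted p under 0.05, 7 liver genes stood lower and 0 higher. Other genes of the liver list had many counts in both groups. *Ambp* had 5184 ± 465 in wild type against 3436 ± 311 in mutant libraries, *Rbp4* 5765 ± 747 against 5063 ± 311, and *Afp* 2862 ± 374 against 2363 ± 138. *Trf* had 4472 ± 417 against 4932 ± 265 and *Ttr* 1139 ± 142 against 1119 ± 115, with log2 fold changes of 0.14 and -0.03. Of 13 macrophage genes, which matter for *Apoe*, 2 were tested and 0 called by edgeR or DESeq2 or at an unadjusted p under 0.05, with a sum of 80.6 to 107 in wild type against 78.5 to 133 in mutant libraries, and *Emr1* and *Ptprc* had 0 counts in all. The 2 tested ones were *Cd68*, with 61.5 ± 23.6 in wild type against 78.8 ± 27.7 in mutant libraries, and *Mrc1*, with 11.6 ± 10.1 against 10.9 ± 4.69. Of 8 yolk sac endoderm genes, a tissue that makes apolipoproteins at this age, 7 are in the tables and were tested, and *Lrp2* was called higher and 0 lower. DESeq2 called 2 higher and 0 lower, and at an unadjusted p under 0.05 *Lrp2* and *Cubn* stood higher and *Afp* lower, with log2 fold changes of 1.08, 0.59 and -0.28. Of 12 epithelial genes 4 were called lower, *Cdh1*, *Krt18*, *Cldn6* and *Cdx2*, and 0 higher by edgeR or DESeq2. At an unadjusted p under 0.05, 4 epithelial genes stood higher, *Epcam*, *Cldn4*, *Cldn7* and *Elf3*, and 6 lower. Of all tested genes 5.83% were called lower and 2.78% higher.

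Regional markers moved with the groups as well. Of 11 tested gastric genes 4 were called lower, *Cldn18*, *Nkx6-3*, *Ctse* and *Vsig1*, and the list summed to 2518 to 2762 normalized counts in wild type against 478 to 663 in mutant libraries. Of 6 tested genes of the anterior intestine 3 were called lower and of 2 tested genes of the posterior intestine 1 was, with medians of -1.09 and -1.22. Of all tested genes 5.83% were called lower. *Pdx1*, which is also on the anterior intestine list, was the called gene, lower, of 3 tested in the pancreas list. Some other genes are shared between lists as well and counted in each. Among them *Lrp2* and *Cubn* are on the receptor and yolk sac lists, and *Cdx2* is on the regulator and epithelial lists. Of the mesenchyme, endothelium, neural crest and blood lists 0 genes were called by edgeR or DESeq2, and at an unadjusted p under 0.05 the mesenchyme list held 2 higher and 2 lower, the neural crest list 1 of each, the blood list 1 lower and the endothelium list 0. The higher ones, *Acta2*, *Tagln* and *Ednrb*, stood far higher in mutant 3, at 489, 264 and 150 normalized counts, than in mutant 1, at 95.3, 66.3 and 18.6, or mutant 2, at 171, 126 and 1.06. The lower mesenchyme genes were *Vim*, from 1252 ± 119 in wild type to 913 ± 49.4 in mutant libraries, and *Col3a1*, from 30.0 ± 17.1 to 6.37 ± 1.93. For both, the groups did not overlap. The 4 called members were called in every fit without 1 library, be it mutant 3 or any other. The part of any of these marker changes in those of the lipid genes was not tested.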

How the data were processed

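RNA-sequencing libraries of small intestine epithelial cells sorted at E13.5 were analysed, 3 from mutant and 3 from wild type embryos. The authors aligned reads to mm9 with STAR 2.5.2b, assigned unique alignments to a UCSC gene model with featureCounts 1.5.1, and deposited the resulting counts of each library as they were. The strand setting of the counting is not given in the sources used here.

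Counts were normalized by the TMM method of edgeR 4.0.16 in R 4.3.3, with factors of 0.958 to 1.06, and 12501 genes that passed filterByExpr were fitted with genotype alone by the quasi-likelihood test (biological coefficient of variation 0.144). Normalized counts are scaled to the mean effective library size. RPKM was computed from them and the merged exon length of each gene in an mm9 annotation, which matched 95.0% of the tested genes. Intervals are at 95% from the fit. For the authors' own limit of RPKM 50, a limit of 50 on the mean of the normalized counts was used here. The members and gene lists were chosen with earlier results of these data known.

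The text names all members, each called list gene up to 6 in order of size, a few regulator genes fixed by name, up to 3 genes of each marker list, all genes of the clusters and the 2 nearest profiles of each called member. Other genes, among them further genes of the regulator and marker lists, are named for comparison and were chosen after their values were seen. The alternatives were DESeq2 1.42.0, RLE or library size scaling, other filters and thresholds, removal of a loess trend (span 0.5) on gene length, a replicate block, and fits without single libraries. Some named genes are not reported here. The tests were tried on simulated counts first. Figures were drawn with matplotlib 3.10.9.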

Additional observations from a re-analysis of the deposited data

How the results depend on the processing

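*Fabp1*, *Fabp2*, *Mttp* and *Apoa4* were called higher under each scaling, filter, tool and left-out library tried, and 0 members were called lower in any. The count of members called higher was 0 when changes of 1 or more on the log2 scale were required, which all 4 miss. It was 2, *Fabp1* and *Fabp2*, at an RPKM of at least 50. At an adjusted p under 0.05 it was 5, with *Apoc2* joining the 4. *Apoc3* and *Apom* were not tested at a mean raw count of at least 50. Of all genes, 200 were called higher with library size alone, 766 after the length correction, 85 at a log2 fold change of at least 1, 902 with no minimum and 106 at an RPKM of at least 50. Lower calls were 413 after the length correction, 284 at a log2 fold change of at least 1, 1178 at an adjusted p under 0.05 and 28 at an RPKM of at least 50. Leaving out 1 library gave 260 to 516 higher and 405 to 867 lower calls, with 405, 406 and 463 lower without wild type 1, wild type 2 and mutant 2. The cause was not tested.

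The labels do not say whether the replicate numbers pair the libraries. Deviations of same-numbered libraries from their group means correlated at 0.010, -0.045 and -0.018. These values show no shared deviation, but with so few libraries they cannot show that there was no pairing. With the replicate block, 4 members were called higher and 0 lower, and of all genes 339 higher and 691 lower. *Apoc2*, *Apoc3* and *Apom* rest on 19.7 to 124 normalized counts in a library, which limits what could be called.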
